A study of Mus musculus with 10 samples.

Results

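The gene segments of the T cell receptor alpha and beta chains were followed in naive CD8+ T cells from wild type and from Ikaros-Zn4-/- animals, both unstimulated and stimulated through the receptor. They were taken by symbol, as every gene of the table whose name starts with Trav, Traj, Trac, Trbv, Trbd, Trbj or Trbc, which gave 154 of 12637 genes. These are 56 V alpha, 58 J alpha, 21 V beta, 2 D beta and 14 J beta segments, the alpha constant gene Trac, and the beta constant genes Trbc1 and Trbc2. The alpha segments lie on chromosome 14 and the beta segments on chromosome 6 (GRCm38, GENCODE M21).

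The cells were sorted from spleens of female C57Bl/6 mice aged 6 weeks as CD8+ cells with high CD62L and low or no CD44. One genotype was wild type (WT), and the other was Ikaros-Zn4-/-, in which the transcription factor Ikaros lacks zinc finger 4 of its DNA-binding region. Cells were used directly (0 min) or kept for 30 or 120 min on a surface carrying antibodies against CD3 and CD28, which engage the receptor complex and a costimulatory molecule. For each genotype 2 unstimulated, 2 30-min and 1 120-min libraries were sequenced, and the series asks how Ikaros acts on genes induced through the receptor. Whether replicates came from different animals is not stated, so p-values measure only how these samples spread, which may be technical. In bulk RNA, fewer cells using a segment and less RNA per cell cannot be told apart. The level of a J or D segment need not be its use by cells. The most abundant J alpha segment, Traj1, is an annotated pseudogene. Whether J and D levels follow use was not tested.

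A T cell builds each receptor chain by joining a V segment to a J segment, with a D segment between them in the beta chain, and splicing the join to a constant gene. Most cells thus carry their own V and J choice, and the set of choices over many cells is the repertoire. V segments encode most of the surface that contacts the MHC molecule, the join encodes the third complementarity-determining loop (CDR3), which contacts the peptide, and the constant region anchors the chain beside CD3.

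The beta segments on which the results turn are printed here from the GENCODE M21 transcripts, 5′ to 3′. For the V beta segments that differed between genotypes the last 120 bases are shown, with the letters TGTGCNAGC in capitals, the cysteine, alanine and serine codons at which CDR3 begins. All 4 lie on the plus strand, Trbv13-1 at chr6:41116007-41116468, Trbv13-2 at chr6:41121396-41121832, Trbv13-3 at chr6:41130147-41130585 and Trbv29 at chr6:41271394-41271881.
Trbv29: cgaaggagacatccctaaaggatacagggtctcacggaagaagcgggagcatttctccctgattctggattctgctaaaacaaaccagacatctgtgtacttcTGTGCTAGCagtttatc
Trbv13-1: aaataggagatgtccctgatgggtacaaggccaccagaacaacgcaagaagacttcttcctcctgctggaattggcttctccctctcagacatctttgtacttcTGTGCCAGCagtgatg
Trbv13-2: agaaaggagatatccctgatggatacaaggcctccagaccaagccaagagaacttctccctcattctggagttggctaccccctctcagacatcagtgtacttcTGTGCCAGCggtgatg
Trbv13-3: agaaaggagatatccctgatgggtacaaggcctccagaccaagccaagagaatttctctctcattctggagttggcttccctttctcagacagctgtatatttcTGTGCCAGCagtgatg

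Searched on the coding strand, these letters occur in the last 120 bases of 21 of the 35 annotated V beta segments and of 0 of 128 V alpha segments. The 3 Trbv13 segments are close relatives, and Trbv13-2 and Trbv13-3 are identical at 90.6% of 340 aligned bases, with a longest common run of 50 bases. Trbv29 is identical to the Trbv13 segments at 63.2% to 67.3% of aligned bases, with no common run above 14 bases. Each of the 21 V beta segments in the table has at least 98.8% of its 50-base stretches to itself among all annotated receptor genes.

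The 7 J beta segments of the first cluster, which lies between Trbd1 and Trbc1 and spans chr6:41533864-41535687 on the plus strand, are shown whole because 5 of them fell at 30 min. Capitals mark the letters TTNGGNNNNGG, which cover the codons of the phenylalanine and glycine motif that ends CDR3.
Trbj1-1: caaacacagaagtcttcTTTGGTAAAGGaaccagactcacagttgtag
Trbj1-2: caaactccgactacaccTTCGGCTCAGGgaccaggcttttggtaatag
Trbj1-3: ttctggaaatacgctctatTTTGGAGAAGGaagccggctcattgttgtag
Trbj1-4: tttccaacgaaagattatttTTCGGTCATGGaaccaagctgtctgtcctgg
Trbj1-5: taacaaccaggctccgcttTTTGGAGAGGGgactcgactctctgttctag
Trbj1-6: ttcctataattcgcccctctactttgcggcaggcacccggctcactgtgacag
Trbj1-7: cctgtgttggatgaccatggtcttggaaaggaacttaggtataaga

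The letters were found on the coding strand in 11 of 14 J beta segments (78.6%) and in 76.7% of the 60 annotated J alpha segments. Trbj1-6, Trbj1-7 and Trbj2-6, an annotated pseudogene, do not hold them. How the authors assigned reads that cross a V-J or J-C join is not given in the sources used here, so the level of a J segment of about 50 bases may depend on that rule.

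Sequence also bears on the alpha segments. Of 128 annotated V alpha segments 56 were analysed here, and in these a median of 59.0% of the 50-base stretches occurred in no other annotated receptor gene (range 11% to 100%). Of the 72 V alpha segments not analysed here, 47 had less than 10% of such stretches, against 0 of the 56. In Trbc1 and Trbc2 the share was 58.9% and 56.0%, and the 2 genes are identical at 87.0% of 676 aligned bases with a common run of 259 bases. The values within Trav families and the split between Trbc1 and Trbc2 are uncertain for that reason.

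Depth, recovered from the spacing of the RPKM values (reads scaled to gene length and to the total of the library), was 4.503 to 13.332 M reads per library. In the deepest library 1 read on a segment of 50 bases was worth 1.5 RPKM, and in the shallowest 4.441 RPKM. The median member had a median of 115.5 reads over the 10 libraries in the V beta class, 41.5 in J beta, 8.5 in V alpha and 3 in J alpha, while Trac had 7192. Single J alpha values thus rest on a few reads. The labelled cell type was checked against its markers. Cd8a stood at 390 to 511 RPKM and Cd3e at 224 to 260 RPKM in the 4 libraries at 0 min. Cd4, Foxp3 and Zbtb7b were not among the genes of the table, which holds only genes that reach a mean of 1.00 RPKM in some group.

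The constant genes give the overall level of each chain. Trac was at 909 and 986 RPKM in WT and at 1196 and 1059 RPKM in mutant cells at 0 min, then 827 and 931 RPKM in WT and 908 and 1080 RPKM in mutant cells after 30 min, and 631 and 620 RPKM after 120 min. The Trbc1 level was 154 to 316 RPKM in WT against 175 to 352 RPKM in the mutant, and that of Trbc2 459 to 771 RPKM against 593 to 1015 RPKM. With the times pooled, the genotypes overlapped for all 3 genes, and the lowest value of each gene in each genotype was that at 120 min. At 0 min alone Trac and Trbc2 did not overlap, and Trbc1 did. Trbc2 was then at 662 and 722 RPKM in WT and at 969 and 848 RPKM in mutant cells. Neither Trac nor Trbc2 passed the test between genotypes at 0 min, and at 30 min all 3 genes overlapped. The separation at 0 min sets 2 libraries against 2, and the share of all genes separated in this way was not counted. Trbc2 was the more abundant beta constant gene in every library, at 1.88 to 3.39 times the RPKM of Trbc1.

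Between genotypes over all times, 3 Trbv13 segments and Trbv29 were higher in Ikaros-Zn4-/- cells. The question was whether the mutation altered the level of any segment, and a linear model of log2(RPKM + 1) with genotype and time was fitted to all genes with limma. Among the 151 members with a mean of at least 0.5 RPKM, 4 were higher and 1 was lower at an adjusted p below 0.05. Of all 12203 genes tested 6.19% were higher and 3.24% lower (9.42% in either direction). The share of members was 2.6% higher and 0.7% lower, and all 4 higher ones were among the 21 V beta segments (19.0%), shares that were not tested against the background. The median log2 difference was 0.17 for V beta segments, 0.06 for V alpha, 0.03 for J alpha and -0.02 for J beta, against 0.01 for all genes.

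Trbv29, a V beta segment known as Vβ7 in the older naming, showed the largest of these differences. In WT cells it was at 47.4 and 59.5 RPKM at 0 min, 60.7 and 64.9 RPKM after 30 min and 44.6 RPKM after 120 min. In mutant cells it was at 151 and 169 RPKM, 142 and 184 RPKM and 134 RPKM at the same times. No mutant library came down to the WT range at any time. The log2 difference was 1.48 (SE 0.11, limma, adjusted p = 3.1e-05). The 4 V beta calls over all times held in all 17 alternatives, with a highest adjusted p of 0.0363 for Trbv13-2. The count of calls over all members rose from 5 to 8 (6 higher, 2 lower) without the second mutant library of 30 min.

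The 3 Trbv13 segments, together the Vβ8 family, were also higher in the mutant. Trbv13-3 was at 45.7, 59.2, 49.0, 40.9 and 31.7 RPKM in WT and at 94.0, 114, 83.9, 90.3 and 50.2 RPKM in mutant libraries, listed as 0, 0, 30, 30 and 120 min, with a log2 difference of 0.90 (SE 0.11, adjusted p = 0.000874). Trbv13-1 was at 51.3, 63.0, 46.7, 51.4 and 49.9 RPKM against 100, 127, 86.0, 107 and 69.3 RPKM in the same order, a difference of 0.86 (SE 0.12, adjusted p = 0.00217). For Trbv13-1 the genotypes did not overlap, and for Trbv13-3 they overlapped only through the mutant library at 120 min. Trbv13-2, the most abundant V beta segment, was at 138, 177, 121, 151 and 110 RPKM against 291, 250, 198, 205 and 139 RPKM, a difference of 0.61 (SE 0.12, adjusted p = 0.0106). Here the mutant library at 120 min lay within the WT range, and at each time every mutant library exceeded every WT library.

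**Figure D1:**
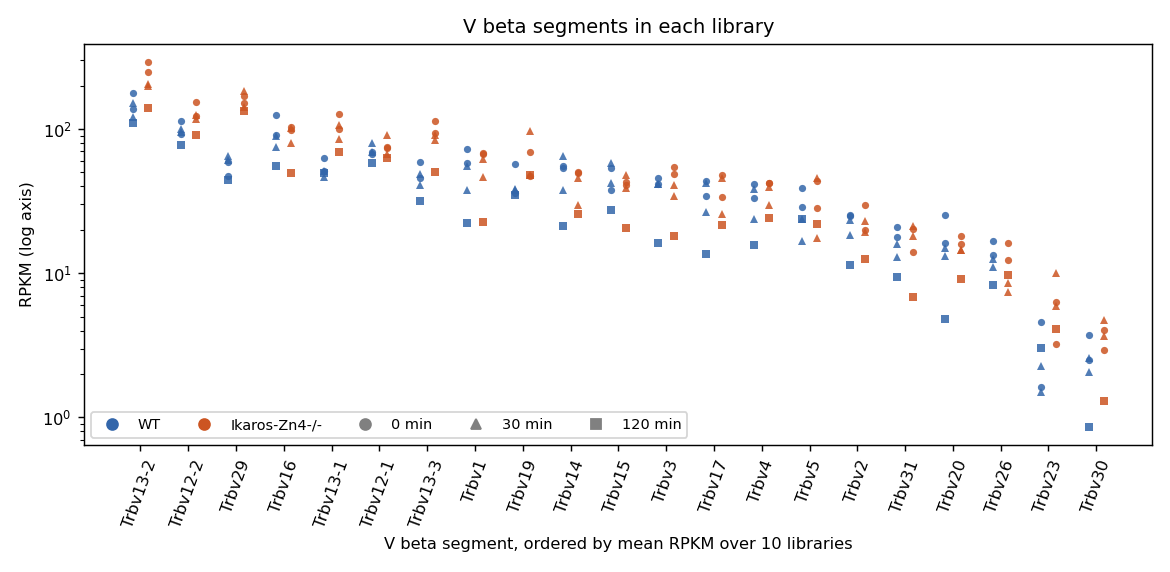
RPKM (log axis) of the 21 V beta segments, ordered by their mean over 10 libraries, with 1 point per library, WT in blue and Ikaros-Zn4-/- in orange, and the marker shape giving the time. The Trbv29 points of the 5 mutant libraries (134 to 184 RPKM) lie above those of the 5 WT libraries (44.6 to 64.9 RPKM).

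The other V beta segments did not pass the test between genotypes over all times. Trbv12-2 came nearest (log2 difference 0.33, SE 0.095, limma adjusted p = 0.0591). Among the alternatives, Trbv12-2 and Trbv19 were called higher with a replicate block, and Trbv23 was called without the second WT library of 0 min. Trbv12-2 was at 77.1 to 113 RPKM in WT and 90.5 to 153 RPKM in mutant libraries, and Trbv16 at 55.4 to 126 RPKM and 49.6 to 104 RPKM. Trbv19 was at 34.9 to 57.2 RPKM and 46.9 to 96.5 RPKM (log2 difference 0.54, SE 0.21, adjusted p = 0.162). The sum of the 17 V beta segments other than Trbv29 and Trbv13 was 403 to 789 RPKM in WT and 449 to 815 RPKM in mutant libraries. With the times pooled, these ranges overlapped nearly throughout. The 17 are the segments that did not pass the test on the same libraries, so their sum is a description.

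Expressed as a share of the summed V beta RPKM, which cancels the overall level of a library, Trbv29 and Trbv13-3 did not overlap between genotypes, while Trbv13-1 and Trbv13-2 did. Trbv29 made up 4.94% to 7.15% of the V beta total in WT and 10.6% to 15.9% in mutant libraries. Trbv13-3 made up 4.08% to 5.77% in WT against 5.96% to 7.86%. The ranges met for Trbv13-1, at 5.13% to 7.80% against 7.07% to 8.78%, and for Trbv13-2, at 14.3% to 17.2% against 14.7% to 20.5%. Trbv29 and the 3 Trbv13 segments together made up 29.5% to 36.9% and 41.9% to 46.6%. These 4 were picked by the test on the same libraries, so the separation of their shares is a description and not separate support. Trbv16 made up 8.66% to 10.9% and 5.89% to 7.32%, again without overlap, but in the other direction. Because shares sum to a fixed total, a lower share of Trbv16 accompanies the higher shares of the others, while its RPKM did not differ past the threshold (log2 difference -0.01, SE 0.12, adjusted p = 0.981). The shares of Trbv12-1 (6.01% to 9.05% and 5.16% to 7.46%) and Trbv1 (3.49% to 6.38% and 2.69% to 4.77%) overlapped with the times pooled. At each time both were lower in every mutant library than in every WT library. How many V beta segments separate on their share was not counted.

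**Figure D2:**
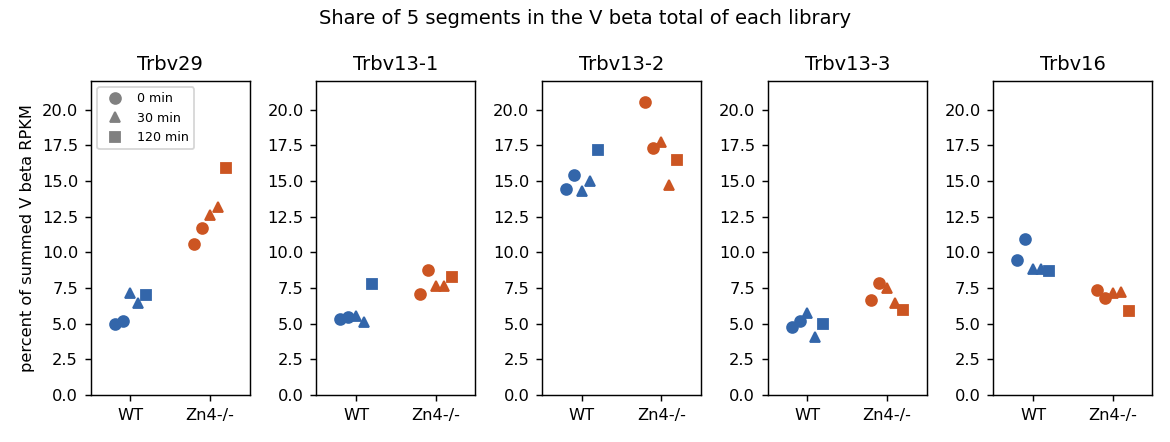
Share of 5 V beta segments in the summed V beta RPKM of each library (percent), with 1 point per library and the marker shape giving the time. The Trbv29 share is 4.94% to 7.15% in the 5 WT libraries and 10.6% to 15.9% in the 5 Ikaros-Zn4-/- libraries, and the Trbv16 share is the lower one in the mutant.

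Tested at single times, the difference had the same direction. At 0 min, 3 members were higher and 0 lower, where 1.92% and 0.557% of all genes were (2.47% in either direction). They were Trbv29 (log2 difference 1.57, SE 0.18, adjusted p = 0.00599), Trbv13-3 (0.98, adjusted p = 0.0394) and Trbv13-1 (0.98, adjusted p = 0.0462). At 30 min, 4 were higher and 0 lower, where 2.01% and 0.606% of all genes were (2.61% in either direction). These were Trbv29 (1.35, SE 0.18, adjusted p = 0.0123), Trbv13-3 (0.94, adjusted p = 0.0445), Trbv13-1 (0.95, adjusted p = 0.0487) and Trav8d-1. When only the compared groups set the spread, 0 members were called at 0 min and 0 at 30 min, and without the second mutant library of the time in question there were 0 calls as well. At 0 min the count was 1 without either WT library of that time, or without either mutant library of 30 min. At 30 min it was 1 without either WT library of 0 min or without the first WT library of 30 min, and 2 without the second. In each of these settings Trbv13-1 and Trbv13-3 lost their calls. The remaining calls were in part other segments. Traj15 was called at 0 min without the first WT library of 0 min, and Trbv29 was not. Traj27 was called at 30 min without either WT library of 30 min, and Trbv29 was not. Trbv29 held its call in 15 of 18 alternatives at 0 min and in 14 of 18 at 30 min.

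Among alpha segments, calls between genotypes rested on few reads. Trav8d-1, with a median of 3.5 reads, was at 0.648 and 0.431 RPKM in WT and at 2.45 and 2.17 RPKM in mutant cells at 30 min (log2 difference 1.11, SE 0.21, adjusted p = 0.0447), and was listed at 0 in the mutant at 120 min. Its call was lost at a pseudocount of 0.1 RPKM, with limma-voom, and when any library of 0 or 30 min was left out. Trav15-2-dv6-2, with a median of 2.5 reads, was at 0.874 to 1.34 RPKM in WT and at 0 to 0.898 RPKM in mutant libraries (difference over all times -0.76, SE 0.20, adjusted p = 0.0495). It lost its call in 13 of 16 alternatives, 9 of them with a library left out. Of 58 J alpha segments 0 passed the test over all times (3 at an unadjusted p under 0.05), and of 14 J beta segments 0 did (0 at an unadjusted p under 0.05).

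The constant genes did not pass the test between genotypes. The log2 difference over all times was 0.16 for Trac (SE 0.10, adjusted p = 0.401), 0.06 for Trbc1 (SE 0.12, adjusted p = 0.794) and 0.37 for Trbc2 (SE 0.14, adjusted p = 0.135). Trbc2 passed in 1 of 17 alternatives, limma-voom on the recovered reads (adjusted p = 0.0345). The summed V beta RPKM amounted to 95.7% to 111% of the 2 beta constant genes in WT and 104% to 127% in mutant libraries, and the summed V alpha RPKM to 16.5% to 20.6% and 18.1% to 21.3% of Trac.

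Some markers of other cell states moved with the genotype, where 6.19% of all genes were higher in the mutant and 3.24% lower. Of 6 genes of memory phenotype CD8 T cells, 4 were higher in the mutant and 0 lower: Cxcr3, a chemokine receptor (log2 difference 3.27, adjusted p = 8.41e-07), Eomes, a T-box transcription factor (1.64, adjusted p = 3.72e-05), Ly6c2 (1.09, adjusted p = 0.00186) and Il2rb, a subunit of the receptors for interleukins 2 and 15 (0.80, adjusted p = 0.0101). The summed level of the 6 genes was 109 to 188 RPKM in WT and 232 to 316 RPKM in mutant libraries. Most of that sum was Il2rb, at 81.0 to 181 RPKM and 159 to 219 RPKM, ranges that overlapped. Cd44, the gene of the sorting marker, was at 0.893 to 1.75 RPKM and 0.731 to 1.11 RPKM. Neither Cd44 (log2 difference -0.31, limma adjusted p = 0.196) nor Ccl5 (0.18, limma adjusted p = 0.505) passed. Whether memory phenotype cells were present, and their part in the V beta difference, was not tested.

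Trbv13, Trbv29 and Trbv1 are also known as the V beta segments of invariant NKT cells, whose alpha chain joins Trav11 to Traj18. Trbv1 did not pass the test between genotypes (log2 difference 0.12, SE 0.13, adjusted p = 0.654), nor did Traj18 (0.30, SE 0.52, adjusted p = 0.781). The Trbv1 share of the V beta total was 3.49% to 6.38% in WT and 2.69% to 4.77% in mutant libraries. Trav11 and Trav11d were not analysed here. Trav1, the V alpha segment of MAIT cells, was at 1.21 to 2.26 RPKM in WT and 0 to 1.82 RPKM in mutant libraries (log2 difference -0.59, SE 0.26, adjusted p = 0.198). Of 8 genes of gamma delta T cells 2 were measured, with a summed level of 0.267 to 3.01 RPKM and 1.04 to 5.21 RPKM, and 0 were called.

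B cell and myeloid genes were present at uneven levels. Of 6 B cell genes 4 were measured: Igkc was higher in the mutant (2.55, adjusted p = 0.00788), Ighm (-0.56, adjusted p = 0.0161) and Cd79b (-0.83, adjusted p = 0.00239) were lower, and their sum was 76.7 to 412 RPKM in WT and 46.7 to 325 RPKM in mutant libraries. Most of that sum was Ighm, and Cd79a, which encodes a signalling chain of the B cell receptor, was at 0.152 to 0.309 RPKM at 0 min. Of 3 measured myeloid genes Itgam was higher in the mutant (0.90, adjusted p = 0.00272), and their sum was 8.14 to 24.8 RPKM and 8.59 to 34.2 RPKM. Of all genes 6.19% were higher in the mutant and 3.24% lower. The part of B cells and myeloid cells in the receptor results was not tested.

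The machinery that makes receptor genes was also compared. Of 11 genes of V(D)J recombination and the pre-receptor 8 were measured, and 1 was higher in the mutant (6.19% of all genes). This was Dntt, which encodes the terminal transferase that adds untemplated bases at the joins, at 2.84, 3.54, 1.95, 2.50 and 1.03 RPKM in WT and 10, 12, 5.88, 5.95 and 2.35 RPKM in mutant libraries (0, 0, 30, 30 and 120 min). Its log2 difference was 1.20 (SE 0.14, adjusted p = 0.000688), and mutant libraries were higher at each time. Rag1, Rag2 and Ptcra were not among the genes of the table.

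Of 15 transcription factors and architectural proteins acting at receptor enhancers, 3 were higher and 0 lower in the mutant (all genes 6.19% and 3.24%). They were Ikzf1 itself (0.59, adjusted p = 0.00165), its relative Ikzf3 (1.12, adjusted p = 1.3e-05) and Gata3 (0.85, adjusted p = 0.0271). Among the 6 partners of the receptor at the cell surface, Cd3d came nearest to the threshold without passing (0.47, SE 0.13, adjusted p = 0.0508).

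Within 30 min of stimulation 5 of the 7 J beta segments of the first cluster fell, and most other members did not change past the threshold. Over both genotypes, 0 of 151 members were higher and 9 lower, where 6.51% of all genes were higher and 12.5% lower (19.0% in either direction). The share of members called lower was 6.0%, and that of first-cluster J beta segments 71.4%, and neither was tested against the background. Over all genes tested, the median change on the log2 scale was -0.13 after 30 min and -0.32 after 120 min, and changes with stimulation are given relative to these medians, while the adjusted p tests the change as deposited.

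Trbj1-3 was at 82.8 and 110 RPKM in WT and 131 and 94.6 RPKM in mutant cells at 0 min, then 46.3 and 44.5 RPKM in WT and 48.8 and 28.9 RPKM in mutant cells after 30 min, and 93.5 and 62.4 RPKM after 120 min. All 4 libraries at 30 min lay below all 4 at 0 min, and its change was -1.17 (SE 0.20, limma, adjusted p = 0.00797). Trbj1-5, the most abundant J beta segment, went from 169 to 288 RPKM at 0 min to 69.3 to 117 RPKM at 30 min, a change of -1.05 (SE 0.21, adjusted p = 0.0122). Trbj1-6 went from 115 to 170 RPKM to 29.4 to 84.6 RPKM, a change of -1.16 (SE 0.23, adjusted p = 0.0139). Neither segment overlapped between these times. Trbj1-2 (-0.79, SE 0.14, adjusted p = 0.0089) and Trbj1-7 (-0.85, SE 0.24, adjusted p = 0.0336) were lower too, but Trbj1-7 lost its call in 8 of 18 alternatives. Trbj1-1 (-0.38, adjusted p = 0.275) and Trbj1-4 (-2.02, SE 1.10, adjusted p = 0.208) did not pass, and Trbj1-4 had 0 reads in the second mutant library of 30 min.

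Summed over the first cluster, the level was 893 to 1131 RPKM without stimulation, 405 to 552 RPKM after 30 min and 641 and 645 RPKM after 120 min. Summed over the second cluster, which lies between Trbd2 and Trbc2, it was 623 to 826 RPKM, 398 to 817 RPKM and 606 and 670 RPKM. The first cluster did not overlap between 0 and 30 min, and the second did. The ratio of the first to the second was 1.17 to 1.52 at 0 min and 0.797, 1.19, 0.599 and 0.626 at 30 min, so it overlapped through the second WT library of 30 min, in which the second cluster was at its lowest (398 RPKM). In the second cluster 0 of 7 segments passed the test at 30 min (1 at an unadjusted p under 0.05). Its leading members Trbj2-6 and Trbj2-7 were at 96.9 to 196 RPKM and 108 to 172 RPKM at 0 min, and at 64.4 to 230 RPKM and 69.5 to 183 RPKM at 30 min. The difference between the clusters was not tested, nor was whether these levels follow the use of the segments by cells. At 120 min, 2 first-cluster segments were lower than at 0 min, Trbj1-1 (-1.24, SE 0.37, adjusted p = 0.00967) and Trbj1-2 (-0.60, SE 0.17, adjusted p = 0.00342), and 0 of the second cluster.

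**Figure D3:**
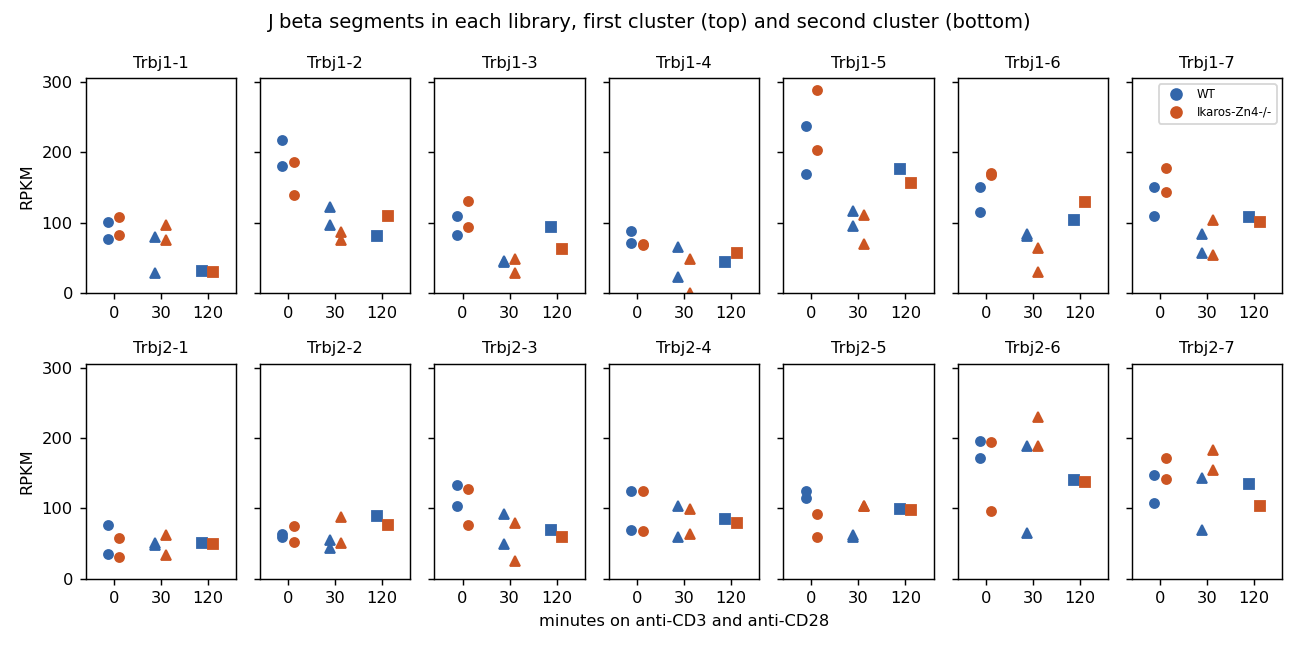
RPKM of the 14 J beta segments against minutes of stimulation, with 1 point per library, WT in blue and Ikaros-Zn4-/- in orange. For Trbj1-3, Trbj1-5 and Trbj1-6 all 4 points at 30 min lie below all 4 at 0 min, while for Trbj2-6 the points at 30 min span 64.4 to 230 RPKM.

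The other falls at 30 min were Trbv26 (-0.41, SE 0.13, adjusted p = 0.0298) and 3 J alpha segments. Traj14 was at 26.9 to 70.5 RPKM at 0 min and 5.25 to 20.7 RPKM at 30 min (-1.72, SE 0.39, adjusted p = 0.0219). Traj13 (-1.51, adjusted p = 0.044) and Traj43 (-1.43, adjusted p = 0.0291) had medians of 7 and 2 reads. Trbv26 and these 3 J alpha segments lost their calls when either WT library of 30 min was left out. Traj13 was the least stable, and also lost its call at a pseudocount of 0.1 RPKM, without a filter and with either scaling. Trac (-0.01), Trbc1 (0.01) and Trbc2 (0.045) lay close to the median of all genes at 30 min, and none passed. The count of 9 was 4 without the first WT library of 30 min, 5 without the second, 5 without the second mutant library of 0 min and 15 without the first mutant library of 30 min. Trbj1-2 and Trbj1-3 passed in each of these and in all 18 alternatives.

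By 120 min most V beta segments and the constant genes had fallen. Of 151 members 57 were lower and 1 higher, where 40.4% of all genes were lower and 19.3% higher (59.7% in either direction). The members' share of 37.7% lower is close to the background, but the classes differed in their counts. Among V beta segments 16 of 21 were lower (76.2%), among V alpha 15 of 53 (28.3%), among J alpha 19 of 58 (32.8%) and among J beta 2 of 14 (14.3%), and both D beta segments and all 3 constant genes were lower. After scaling each library by the median ratio, 43 members were lower and 2 higher, 12 of them V beta segments, where 29.9% of all genes were lower and 29.9% higher.

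Relative to all genes the median change was -0.55 for V beta, -0.19 for V alpha, -0.76 for J alpha and -0.06 for J beta segments. The J alpha median was -0.34 without the first WT library of 0 min and -1.17 without the second. Each genotype had 1 library at 120 min, which was assumed to vary like the others. Without the WT library 38 members were lower and 2 higher, and without the mutant library 31 and 1. Of the V beta segments 12 were lower in either case.

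Trac changed by -0.41 (SE 0.16, adjusted p = 0.00655), Trbc1 by -0.60 (SE 0.17, adjusted p = 0.00315) and Trbc2 by -0.28 (SE 0.21, adjusted p = 0.0448). Trbc2 lost its call in 11 of 18 alternatives and Trac in 2. Among V beta segments Trbv1 changed most, from 58.3 to 73.3 RPKM at 0 min to 22.3 and 22.7 RPKM at 120 min (-1.21, SE 0.20, adjusted p = 0.000563). Trbv3 went from 41.5 to 54.4 RPKM to 16.2 and 18.2 RPKM (-1.10, SE 0.12, adjusted p = 9.84e-05). Neither overlapped between these times. Trbv29 was among the 5 V beta segments that did not pass (0.07, SE 0.15, adjusted p = 0.202), and Trbv13-1 passed narrowly (-0.12, adjusted p = 0.0463) and lost its call in 8 of 18 alternatives.

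Among V alpha segments, Trav14-1 fell from 10.9 to 12.5 RPKM at 0 min to 5.03 RPKM in WT and 1.51 RPKM in mutant cells at 120 min (-1.39, SE 0.14, adjusted p = 0.000105). Trav12-2, the most abundant V alpha segment with a mean of 13.0 RPKM, was at 9.88 to 18.2 RPKM at 0 min and at 5.39 and 9.74 RPKM at 120 min (-0.43, SE 0.18, adjusted p = 0.00878). Trav3-3 (-0.95, SE 0.27, adjusted p = 0.00579) was also lower. Trav13-1 and Trav4-3, the other leading V alpha segments, were at 7.40 to 13.5 RPKM and 6.80 to 13.4 RPKM at 0 min and at 3.99 and 5.53 RPKM and 6.24 and 6.62 RPKM at 120 min, without passing the test. By family, the 3 Trav12 segments summed to 19.9 to 39.7 RPKM at 0 min and 12.2 and 13.3 RPKM at 120 min, and the 5 Trav14 segments to 23.9 to 30.9 RPKM and 11.7 and 16 RPKM. Neither family overlapped between these times, nor did Trav3, Trav5, Trav7, Trav9, Trav13, Trav16 or Trav21. Other families, such as Trav4, Trav6 and Trav8, did. For these and other genes or segments said not to overlap between times or between genotypes, the share of all genes without overlap was not counted.

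**Figure D4:**
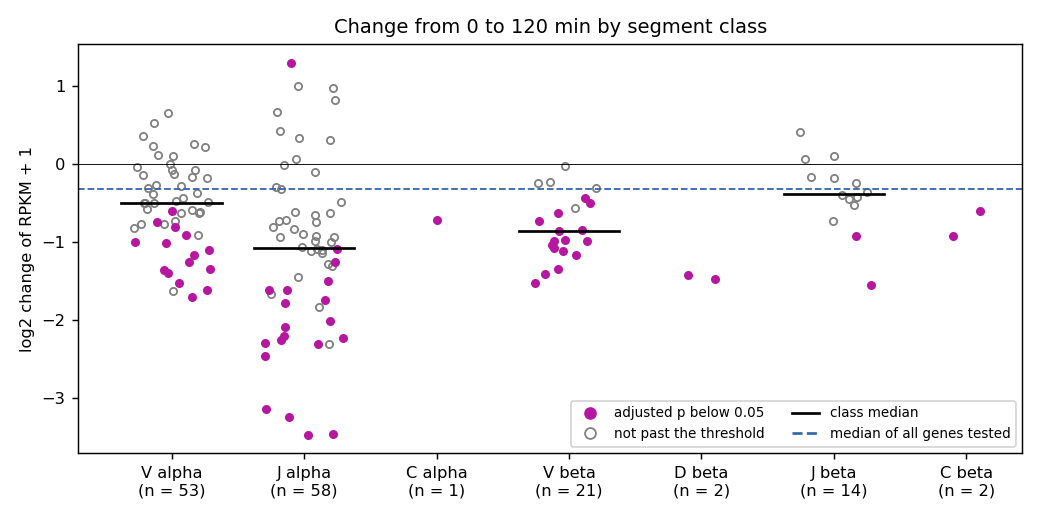
Log2 change of RPKM + 1 from 0 to 120 min for the 151 members tested, by segment class, with called members filled, class medians as bars and the median of all genes (-0.32) as a dashed line. The V beta median is -0.86 and the J alpha median -1.08, both below the dashed line, and the J beta median of -0.38 lies beside it.

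The 10 called members with the largest changes at 120 min were J alpha segments. Traj6 was at 76.6 and 21.8 RPKM in WT and 70.2 and 46.6 RPKM in mutant cells at 0 min and at 6.15 and 1.75 RPKM at 120 min (-3.16, SE 0.49, adjusted p = 0.000876). Traj14, an annotated pseudogene, went from 26.9 to 70.5 RPKM to 11.5 RPKM in WT and 0 in mutant cells (-3.15, SE 0.48, adjusted p = 0.000802), and Traj30 from 11.3 to 17.2 RPKM to 1.61 RPKM and 0 (-2.83, SE 0.30, adjusted p = 0.000159). In these 3 no library at 120 min reached the range at 0 min. Traj43 had 0 reads in both libraries at 120 min against a mean of 9.65 RPKM at 0 min, at least 3.61-fold lower with a floor of 3 reads over the group. The other 6 were Traj18 (-2.16), Traj31 (-1.995), Traj48 (-1.99), Traj22 (-1.95), Traj7 (-1.91) and Traj8 (-1.90), with adjusted p from 0.000612 to 0.0191 and medians of 2.5 to 16.5 reads. Traj18, the J segment of invariant NKT cells, was at 10.2 to 48.0 RPKM at 0 min and at 4.33 and 1.65 RPKM at 120 min. The single higher member, Traj59, had 3 reads in the mutant library at 120 min and 1 in all others together, and without that library it was at 0 in all but 1.

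The table holds only genes that reach a mean of 1.00 RPKM in some group, and 61 of the 154 members, 28 of them J alpha and 32 V alpha, were below 1 RPKM in at least 1 group. Such a segment can be in the table because of the group where it is high. Of the 57 lower members 41 never fell below 1 RPKM in a group, 15 of them V beta, 11 J alpha and 8 V alpha. With the 7 J alpha segments that had 0 reads at 120 min set to the floor, the J alpha median was -0.65 relative to all genes.

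The level of a J alpha segment followed its distance from Trac. Among 19 members from Traj1 to Traj20, which start 1.7 to 21.1 kb before Trac, the median of the mean levels was 33.4 RPKM at 0 min, 16.3 RPKM at 30 min and 11 RPKM at 120 min. Among 20 members from Traj21 to Traj40 it was 8.22, 6.58 and 4.31 RPKM, and among 19 from Traj41 to Traj60, up to 64.6 kb away, 2.63, 2.37 and 0.862 RPKM. The segments near Trac were thus the more abundant ones at each time. Over the 58 segments, Spearman's rho of distance and mean RPKM was -0.86. This is a description over segments that share libraries and have annotated lengths of 29 to 66 bases. Whether these levels follow the use of the segments by cells was not tested. Traj1, the nearest and an annotated pseudogene, was the highest at a mean of 71.1 RPKM, followed by Traj2 (41.1), Traj7 (39.5), Traj6 (37.1) and Traj12 (29.6). At 120 min 8 segments were called lower in the nearest group, 8 in the middle one and 3 in the farthest, on totals of 2440, 1117 and 313 reads.

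**Figure D5:**
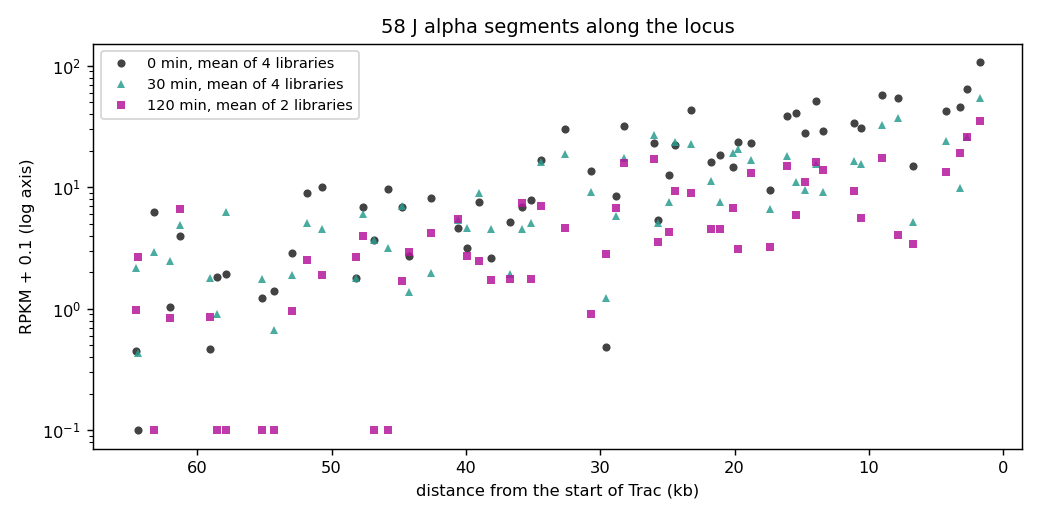
Mean RPKM plus 0.1 (log axis) of the 58 J alpha segments against the distance of their start from that of Trac in kb, as means of 4 unstimulated libraries, 4 after 30 min and 2 after 120 min. Segments within 21.1 kb of Trac had a median of 33.4 RPKM at 0 min and those beyond 44.2 kb one of 2.63 RPKM, and points at the lower edge had 0 reads.

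One library stood apart in this class. The summed J alpha level was 1455 RPKM in the first WT library at 0 min, against 766 RPKM in the second and 1157 and 878 RPKM in the mutant, or 160% of Trac against 77.7% to 96.7%. At 30 min the sum was 62.9% to 67.0% of Trac and at 120 min 60% in WT and 56.0% in mutant cells. All 4 libraries at 0 min were above all 6 others on this ratio. Without that library the J alpha median at 120 min went from -0.76 to -0.34 relative to all genes, and 16 rather than 19 J alpha segments were called lower.

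The D beta segments are 12 and 14 bases long and had medians of 12 and 6.5 reads. Trbd1 was at 137 to 334 RPKM at 0 min and at 63.5 and 72.4 RPKM at 120 min (-1.11, SE 0.33, adjusted p = 0.00763), and Trbd2 at 47.6 to 73.2 RPKM and 13.6 and 31.0 RPKM (-1.16, SE 0.35, adjusted p = 0.00946). Neither overlapped between these times.

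The partners of the receptor were set beside its constant genes. Of 6 genes 5 were lower at 120 min and 2 at 30 min, where 40.4% and 12.5% of all genes were. Cd8a, the alpha chain of the coreceptor, changed by -0.49 (SE 0.13, adjusted p = 0.0211) at 30 min and -2.82 (SE 0.16, adjusted p = 3.7e-05) at 120 min, and Cd3e, a signalling chain of CD3, by -0.60 (SE 0.13, adjusted p = 0.0115) and -2.24 (SE 0.15, adjusted p = 4.07e-05). Cd3g (-2.37), Cd8b1 (-1.84) and Cd3d (-0.70) were lower at 120 min too. Cd247, the zeta chain, was at 0.09 relative to all genes and did not pass at 120 min (adjusted p = 0.256). The differences between these genes and Trac were not tested.

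Among the 8 measured genes of recombination 2 were lower at 30 min, Dntt (-0.45, adjusted p = 0.0202) and Lig4 (-0.56, adjusted p = 0.0211), and 6 at 120 min, led by Xrcc6 (-1.45, adjusted p = 0.000125) and Dntt (-1.13, adjusted p = 0.000213). Of the 15 factors of the enhancers 1, Ikzf3, was lower at 30 min, and 3 were higher and 4 lower at 120 min. Of all genes 12.5% were lower at 30 min, and 19.3% were higher and 40.4% lower at 120 min. Myb (2.54, adjusted p = 0.000206), Satb1 (1.60, adjusted p = 8.9e-05) and Ets1 (0.93, adjusted p = 0.00514) rose, and Ikzf3 fell by most (-1.18, adjusted p = 4.71e-05). Runx3 (-0.20), Gata3 (-0.12) and Ctcf (-0.01) were called lower on the deposited scale while lying close to the median of all genes. Markers of other cells moved as well: the summed B cell genes went from 284 to 412 RPKM at 0 min to 46.7 and 76.7 RPKM at 120 min, Cd79a among them from 0.152 to 0.309 RPKM to 3.79 and 6.26 RPKM, and the myeloid genes from 20.3 to 27.5 RPKM to 8.14 and 8.59 RPKM, and their part in the receptor results was not tested.

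Whether the 30 min response differed between genotypes was tested as an interaction. Of 151 members 0 passed with limma, as did 0% of all 12203 genes, and 9 members had an unadjusted p under 0.05. The count was 0 in each of the 18 alternatives, including limma-voom. For Trbj1-3 the difference in response was -0.48 (SE 0.39, adjusted p = 0.916) and for Trbv29 -0.22 (SE 0.25, adjusted p = 0.93). With 2 libraries per group, responses of these sizes could not be told from 0.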

How the data were processed

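RNA was measured in 10 libraries of 6 groups, prepared with a TruSeq kit, per the labels' protocols, of a kind that does not mark strand. The authors deposited RPKM per gene. TopHat2 2.0.12, TopHat and HTSeq 0.6.1 and the builds mm10 and GRCm38 are named per the submitters' processing notes, and the role of each is not given in the sources used here.

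Genes whose mean RPKM was 0.5 or more (12203, 151 of them members) were tested as log2(RPKM + 1) with limma 3.58.1 in R 4.3.3, with a mean-variance trend, two-sided, Benjamini-Hochberg adjusted over all genes, at a threshold of 0.05. Models held 6 group means (4 residual degrees of freedom) or, over all times, genotype and time (6). Read depth was recovered from the spacing of values below 200 reads, of which 69.6% to 74.1% came out whole within 0.05 read. For 50 of 151 members the annotated length was missing or did not give whole reads. Their reads were recovered with a length at or near the smallest one that did. The fit was tested on simulated data. Tables and figures used Python 3.11.15, numpy 2.4.6, pandas 2.3.3, matplotlib 3.10.9 and Biopython 1.88.

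The rule for named genes took the constant genes, the 5 highest members of each V and J class by mean RPKM, members called between genotypes, the 10 called members with the largest change in each stimulation comparison, the segments of invariant receptors and the marker lists. Other members named, such as Trbv1, Trbv3, Trbv19, Trbj1-1, Trbj1-4 and the D segments, were chosen after their values were seen. The members and lists were chosen with earlier results of these data known. Alternatives covered the pseudocount (0.1), the filter (none, or a mean of 2 RPKM), scaling, the spread, limma-voom on recovered reads, a replicate block and each library left out.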

Additional observations from a re-analysis of the deposited data

How the results depend on the processing

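Over all times, the count of 5 members called between genotypes ranged from 4 to 8 when libraries were left out in turn. At 0 min the count of 3 ranged from 0 to 3, with 1 when no filter was applied and 0 when only the compared groups set the spread. At 30 min the count of 4 ranged from 0 to 5, with 2 at a pseudocount of 0.1 RPKM, 2 without a filter and 0 when only the compared groups set the spread. From 0 to 30 min the count of 9 ranged from 4 to 15, from 0 to 120 min the count of 58 ranged from 32 to 64, and for the difference in response it was 0 throughout. The cause was not tested.

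Replicate numbers are shared by the groups, and the labels name no shared source. The deviations of same-numbered libraries correlated at 0.16 to 0.23 in 5 of 6 pairs of groups and at 0.037 in the other, below the 0.1 required of every pair, so the numbers were not taken to pair the libraries. Whether some share a source was not tested. If they do, libraries of the same genotype are not independent in the test over all times, and its p-values may be too small. With a replicate block the counts were 8 (8 higher) between genotypes over all times, 3 at 0 min, 5 at 30 min, 19 from 0 to 30 min, 66 from 0 to 120 min and 0 for the difference in response.

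When each library was left out in turn, 3 changes at 120 min turned in sign and that of Traj59 went to 0. That of Traj28 ranged from -3.047 to 0.536 (without the WT library of 120 min), of Traj49 from -3.656 to 0.083, of Traj59 from 0 to 2.607 and of Trav8d-1 from -1.253 to 0.049 (the latter 3 without the mutant library of 120 min). Few reads limit the alpha segments most, with a median of 3 reads for J alpha and 8.5 for V alpha.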
